A study of Mus musculus with 24 samples.

Results

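The 33 genes described here encode the enzymes of cholesterol and fatty acid synthesis, with the factors that set their transcription. They were listed by name: 18 belong to the sterol arm, 6 are regulators or carry sterol, and 9 belong to the fatty acid arm. All 33 were found among the 15100 gene names tested. Each was read by its brightest probe among those well above background throughout 1 or more groups. Of the 33 genes, 31 were well above background on all 24 arrays, Acat2 on 23 and Scd1 on 18. Scd1 met that filter through the CAT groups only.

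RNA came from RAW264.7, an established mouse macrophage-like line derived from a virus-induced leukaemia. A Tbc1d23 line carried a construct that overexpresses Tbc1d23, a protein of the family that acts on Rab GTPases in membrane traffic. Its control line carried a construct for chloramphenicol acetyltransferase (CAT), a bacterial enzyme. Both lines grew in 400 ug/ml G418, and each was lysed after 1, 3 or 5 h in 20 ng/ml lipopolysaccharide (LPS), the bacterial ligand of Toll-like receptor 4, or without it (0 h). Each of the 8 groups of line and time had 3 arrays, called biological replicates by the submitters. The promoter of the constructs, and whether a line was a clone or a pool, are not given in the sources used here. There was 1 line per construct, so an effect of the construct and a difference between the lines that carry it cannot be told apart. Where nothing says that replicates were separate cultures, p-values measure only the spread between these arrays.

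Cells build cholesterol from acetyl-CoA through mevalonate, isoprenoid pyrophosphates, squalene and lanosterol. The transcription factor SREBP2, encoded by Srebf2, switches on most genes of this route when sterols in the endoplasmic reticulum are low. SREBP1, encoded by Srebf1, acts more on fatty acid genes. The protein Scap escorts both to the Golgi for cleavage, and the Insig proteins hold Scap back when sterols are plentiful. Macrophages reshape this lipid metabolism when Toll-like receptors are engaged.

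Levels are given as log2 of the processed signal relative to the 75th percentile of its array, so that 0 is the signal of a probe at that percentile. Levels of different genes are not compared, since each probe has its own response. Differences are on the same log2 scale, Tbc1d23 line minus CAT line or LPS minus 0 h, with the standard error (SE) of the limma fit over 3 arrays a group. A gene was called where its adjusted p was under 0.05 over all genes tested. Arrays had 42.2 to 69.7% of spots well above background, and arrays of a group correlated at 0.967 to 0.993 across genes, which are not independent replicates. Replicates 1 and 2 of the Tbc1d23 line lay on slides of one serial run, and its replicate 3 lay with all CAT arrays on another. The Tbc1d23 transcript itself did not separate the lines on its brightest probe, with levels of 2.82 to 3.63 in the Tbc1d23 line and 2.52 to 3.39 in the CAT line. Which stretch of Tbc1d23 the construct holds is not given, so this probe may lie outside that stretch and then checks nothing. A dimmer Tbc1d23 probe was higher in the Tbc1d23 line by 0.50 averaged over times (adjusted p = 5.06e-05). At 5 h alone its difference was 0.49 (adjusted p = 0.0261), and it differed by 0.35 at 0 h (adjusted p = 0.114). The times of a replicate shared a slide. Averages over times take their arrays as separate, so the SEs and p-values of averages make no allowance for that sharing.

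Before LPS, most genes of both arms were lower in the Tbc1d23 line than in the CAT line. At 0 h, 25 of the 33 genes were lower in the Tbc1d23 line and 3 were higher, beside 45.2% of all genes called in either direction, 20.1% lower and 25% higher. The median difference was -1.19 over the 33 genes and 0.09 over all genes. In bulk RNA, fewer cells with a transcript and less of it per cell cannot be told apart. At 1 h of LPS the counts were 26 lower and 2 higher (45.7% of all genes called, 21.1% lower and 24.5% higher), with a median of -1.20. The gap was smaller later: 19 were lower and 5 higher at 3 h (50.9% called, 23.6% lower and 27.3% higher, median -0.52), and 17 were lower and 6 higher at 5 h (53.4% called, 23.5% lower and 29.9% higher, median -0.42). Averaged over the times, 25 were lower and 4 higher (70.5% called, 32.2% lower and 38.3% higher). With the slide as a random effect, 54.2% of all genes were called by this average. The groups of 3 arrays did not overlap for 28 genes at 0 h, beside 51.9% of all genes. Scd1 could pass the filter only where it was high, so its direction was fixed by that filter. Without it 24, 25, 18 and 16 of 32 genes were lower at 0, 1, 3 and 5 h, with medians of -1.19, -1.16, -0.48 and -0.42.

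Of the 25 genes lower at 0 h, 17 were again lower at 5 h, 6 were not called at 5 h (Fads2, Mvd, Mvk, Scd2, Srebf1 and Stard4), and Dhcr7 and Elovl6 were higher. A second Mvk probe, about as bright, was lower at 5 h (-0.88, adjusted p = 1.02e-06), so the missing Mvk call depends on the probe. There were 15 genes lower in the Tbc1d23 line at all 4 times, beside 10.5% of all genes. They were Fdps, Fdft1, Idi1, Pmvk, Sqle, Lss, Cyp51, Tm7sf2, Msmo1 and Nsdhl of the sterol arm, Srebf2 among the regulators, and Acaca, Acly, Fads1 and Scd1 of the fatty acid arm, or 14 genes without Scd1. Nsdhl and Lss had 3 probes each. The dimmest was not called at 5 h for Nsdhl (-0.36, adjusted p = 0.258) or Lss (-0.44, adjusted p = 0.123). The middle one was lower for both (-0.86, adjusted p = 4.4e-05, and -1.28, adjusted p = 3.52e-05). Scap and Me1 were higher at all 4 times (14.6% of all genes), and Acat2, Ebp and Insig2 were called at none. Scaled to the array median in place of the 75th percentile, the split was 26 lower and 0 higher at 0 h. It was 9 lower and 1 higher at 3 h, and 13 lower and 2 higher at 5 h. Under this scaling 30.9, 27.6 and 31.1% of all genes were called at 0, 3 and 5 h. The members' share at 3 h was thus near that of all genes. The median of all genes was -0.45 at 0 h under this scaling. At 1 h, 6 of the 28 calls were lost, beside 20.2% of all genes called. Within the slide run that held both lines, the Tbc1d23 line had its replicate 3 alone, so no counts are given. Without the 4 arrays of Tbc1d23 replicate 3, 27, 28, 22 and 25 genes were called at 0, 1, 3 and 5 h. The shares of all genes were 50.4, 51.3, 55.6 and 57.9%. The lines then lay on separate slide runs, so line and run cannot be told apart in that fit.

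**Figure D1:**
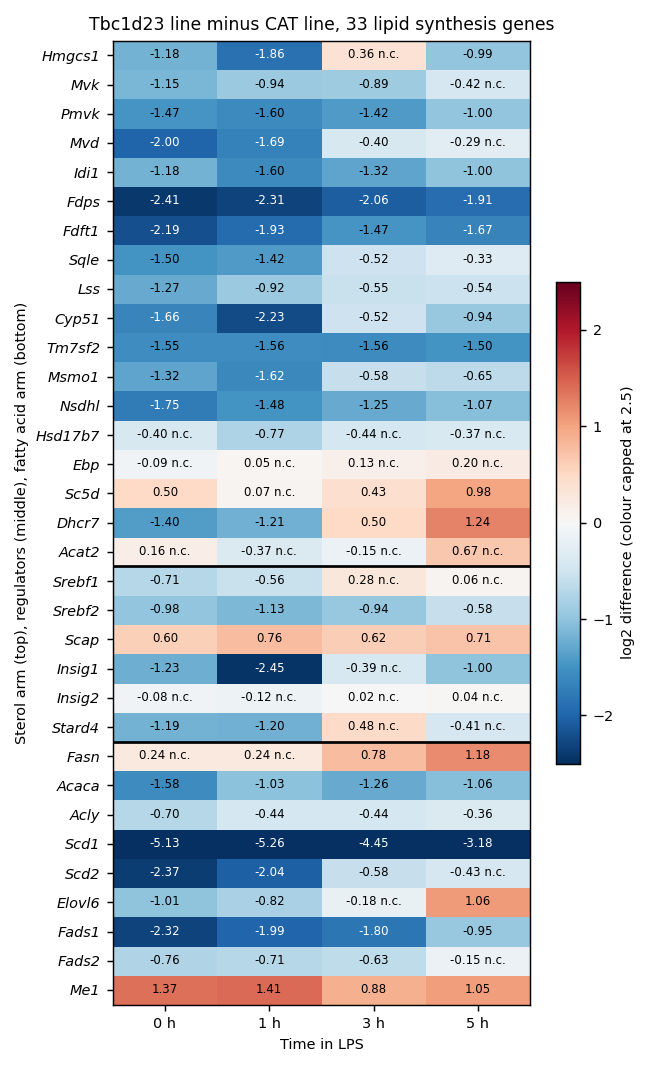
Log2 difference of each of the 33 genes, Tbc1d23 line minus CAT line, at 0, 1, 3 and 5 h of LPS (3 arrays a group), by colour, with the colour scale capped at 2.5 in either direction and n.c. marking genes not called. Called lower values fill 25 of 33 rows at 0 h and 17 at 5 h, while Dhcr7 and Elovl6 change side.

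In the sterol arm, 14 of 18 genes were lower in the Tbc1d23 line at 0 h and 1, Sc5d, was higher on its brightest probe, against a dimmer probe, with an arm median of -1.36. Fdps, which makes farnesyl pyrophosphate, the branch point to sterols and isoprenoids, stood at 2.74, 2.84 and 2.65 in the Tbc1d23 line at 0 h, against 5.12, 5.10 and 5.23 in the CAT line. The groups did not overlap, and the difference was -2.41 ± 0.10 (5.31-fold lower, adjusted p = 7.41e-13). At 5 h Fdps stood at 2.77, 2.99 and 2.82 in the Tbc1d23 line, against 4.79, 4.71 and 4.83 in the CAT line, a difference of -1.91 ± 0.10. Fdps thus lay apart in the lines with and without LPS. Its probe maps to chr3:88898812-88898952 (mm9). A dimmer Fdps probe gave a difference of -0.58 at 0 h (adjusted p = 0.175) and 0.00 averaged over times, so the size of the Fdps difference rests on the brighter probe.

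Fdft1, squalene synthase, commits farnesyl pyrophosphate to sterols, and its probe spans chr14:63765769-63770009. At 0 h it stood at -0.64, -0.72 and -0.37 in the Tbc1d23 line, against 1.87, 1.49 and 1.48 in the CAT line. After 5 h Fdft1 stood at -1.01, -0.57 and -0.59 in the Tbc1d23 line, against 1.14, 0.82 and 0.87 in the CAT line. Every Tbc1d23 array was below every CAT array at both times, with differences of -2.19 ± 0.17 and -1.67 ± 0.17. Tm7sf2, a sterol C14 reductase after the lanosterol step (chr19:6062882-6062941), was at -0.45, -0.30 and -0.12 in the Tbc1d23 line at 0 h, against 1.31, 1.23 and 1.24 in the CAT line. At 5 h Tm7sf2 was at -0.39, -0.51 and -0.12 in the Tbc1d23 line, against 1.33, 0.97 and 1.18 in the CAT line. Its difference lay between -1.56 and -1.50 at all 4 times, the narrowest range over time among the sterol genes lower at all 4 times.

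Most other enzymes on the way to squalene were also lower at 0 h. Hmgcs1, which makes HMG-CoA, differed by -1.18, the mevalonate kinase Mvk by -1.15, and the next kinase Pmvk by -1.47. Idi1, which interconverts the isopentenyl pyrophosphates, differed by -1.18. After squalene, the difference at 0 h was -1.50 for the epoxidase Sqle and -1.27 for the cyclase Lss, which forms lanosterol. The demethylase Cyp51, the methyl sterol oxidase Msmo1 and the dehydrogenase Nsdhl, which remove methyl groups of lanosterol, differed by -1.66, -1.32 and -1.75. These 9 genes were each called lower at 0 h. The Idi1 probe lies on chromosome 2 in the files, while RefSeq places Idi1 on chromosome 13, so the assignment of this probe is uncertain. A second Idi1 probe averaged -1.47.

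The 4 remaining sterol genes were not called lower at 0 h on their brightest probes. Hsd17b7, a sterol ketone reductase, differed by -0.40 at 0 h (adjusted p = 0.14) and was called lower at 1 h (-0.77) and over the average of times (-0.50). A dimmer Hsd17b7 probe was lower at 0 h (-0.67, adjusted p = 0.000277) and at 5 h (-1.01, adjusted p = 2.04e-06). The sterol isomerase Ebp differed by -0.09 at 0 h and 0.20 at 5 h, not called. Acat2, a cytosolic thiolase that joins acetyl-CoA units, differed by 0.16 at 0 h (adjusted p = 0.728). Sc5d, the lathosterol desaturase, was higher by 0.50 at 0 h and by 0.98 at 5 h on its brightest probe, but a dimmer Sc5d probe was lower by -1.79 at 0 h, so no direction is given for this gene.

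Mvd and Dhcr7, picked for the steepest falls of the arm in the CAT line at 5 h, had line gaps that altered with LPS. In the sterol arm, 11 of the 14 genes lower at 0 h were again lower at 5 h. Mvd, which makes isopentenyl pyrophosphate from mevalonate pyrophosphate (chr8:124957750-124957809), was at 0.70, 0.78 and 1.08 in the Tbc1d23 line at 0 h, against 2.94, 2.87 and 2.76 in the CAT line. After 5 h of LPS Mvd was at 0.55, 0.78 and 1.05 in the Tbc1d23 line, against 1.32, 0.99 and 0.93 in the CAT line, and the groups overlapped. The difference was -2.005 ± 0.15 at 0 h and -0.29 ± 0.15 at 5 h (adjusted p = 0.124). Dhcr7, which makes cholesterol from 7-dehydrocholesterol (chr7:151034253-151034312), was at 3.03, 3.32 and 3.18 in the Tbc1d23 line at 0 h, against 4.46, 4.68 and 4.59 in the CAT line. At 5 h Dhcr7 was at 2.84, 3.02 and 3.10 in the Tbc1d23 line, against 1.98, 1.70 and 1.56 in the CAT line. The order of the lines was thus opposite at the 2 times without overlap, with differences of -1.40 ± 0.17 at 0 h and 1.24 ± 0.17 at 5 h. A dimmer Dhcr7 probe gave -2.12 at 0 h and -0.03 at 5 h, so the higher level at 5 h rests on the brighter probe.

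**Figure D2:**
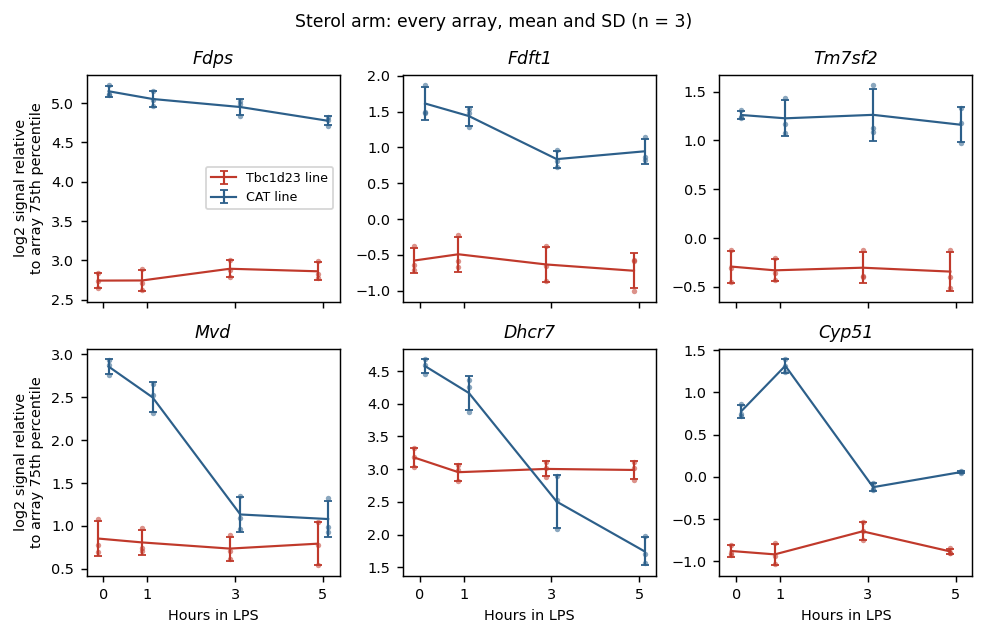
Level of 6 sterol genes on every array (points), with the mean and SD of 3 arrays (lines and bars), by hours in LPS, the y axis in log2 signal relative to the array's 75th percentile. Fdps, Fdft1 and Tm7sf2 stay apart in the lines at 0 to 5 h, Mvd meets between them, Dhcr7 crosses, and Cyp51 peaks in the CAT line at 1 h.

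Promoter windows from 250 bases before to 50 after the transcription start were taken from RefSeq (GRCm38.p6) for the 26 of 33 genes that the table held. The core of the sterol response element was searched as TCACNCCAC, the NF-Y motif as CCAAT, the Sp1 motif as GGGCGG and the E-box as CACGTG, on both strands. SREBP is known to work with NF-Y or Sp1 at many of its targets. CCAAT lay in the windows of 21 of 26 genes, and of 14 of 15 sterol genes (93.3%), against 41.1% of 27025 genes. GGGCGG lay in 22 of 26, against 38.2% of genes, and CACGTG in 5 of 26, against 8.09%. The sterol response element core lay in 1 of 26, Hmgcs1, against 1.44% of genes. No match overlapped a match of another motif. These matches describe letters and not binding.

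3 windows are shown because their genes moved in different ways in the lines: Hmgcs1 holds the only sterol response element core, and Mvd and Dhcr7 had the widest gap between 0 and 5 h in the sterol arm. Capitals mark TCACNCCAC in the Hmgcs1 window, at chr13:119690101-119690400 on the plus strand, where it starts 137 bases before the transcription start. In the windows of Dhcr7 (chr7:143829964-143830263, plus strand) and Mvd (chr8:122443373-122443672, minus strand) they mark CCAAT or its reverse complement ATTGG, starting 85 and 49 bases before the start of Dhcr7 and 60 and 27 bases before that of Mvd.
Hmgcs1: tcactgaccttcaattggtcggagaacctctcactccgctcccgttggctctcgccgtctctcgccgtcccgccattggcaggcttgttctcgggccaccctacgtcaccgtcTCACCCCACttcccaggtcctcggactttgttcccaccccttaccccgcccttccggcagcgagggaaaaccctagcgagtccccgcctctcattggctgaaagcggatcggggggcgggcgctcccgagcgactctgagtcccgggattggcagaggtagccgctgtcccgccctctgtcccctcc
Dhcr7: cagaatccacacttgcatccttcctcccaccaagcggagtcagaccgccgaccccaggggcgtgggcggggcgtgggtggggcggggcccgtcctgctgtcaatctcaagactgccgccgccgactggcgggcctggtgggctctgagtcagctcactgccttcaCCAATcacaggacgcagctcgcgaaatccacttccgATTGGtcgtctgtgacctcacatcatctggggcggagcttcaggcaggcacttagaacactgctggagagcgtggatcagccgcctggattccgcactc
Mvd: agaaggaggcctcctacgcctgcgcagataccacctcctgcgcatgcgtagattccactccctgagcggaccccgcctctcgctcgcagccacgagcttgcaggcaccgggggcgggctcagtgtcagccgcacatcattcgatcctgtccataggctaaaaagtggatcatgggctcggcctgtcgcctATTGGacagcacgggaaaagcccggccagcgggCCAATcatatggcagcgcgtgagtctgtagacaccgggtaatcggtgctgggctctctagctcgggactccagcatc

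Among the 6 regulators, 4 were lower in the Tbc1d23 line at 0 h, Scap was higher and Insig2 was not called. Srebf2, the gene of SREBP2, was at 4.54, 4.95 and 4.62 in the Tbc1d23 line at 0 h, against 5.44, 5.83 and 5.77 in the CAT line. At 5 h Srebf2 was at 4.75, 5.02 and 4.95 in the Tbc1d23 line, against 5.42, 5.55 and 5.49 in the CAT line. It was lower without overlap at both times, with differences of -0.98 ± 0.13 and -0.58 ± 0.13, and its 3 other probes also gave lower averages (-0.62, -1.14 and -1.51). Srebf1, the gene of SREBP1 (chr11:60013214-60013273), was at 5.35, 5.59 and 5.69 in the Tbc1d23 line at 0 h, against 6.25, 6.23 and 6.26 in the CAT line. After 5 h Srebf1 was at 5.18, 4.82 and 5.51 in the Tbc1d23 line, against 5.14, 5.06 and 5.12 in the CAT line, so the groups overlapped. The difference was -0.71 ± 0.15 at 0 h and 0.06 ± 0.15 at 5 h (adjusted p = 0.761). Averaged over times it was -0.23, a call lost once the slide run entered as a block (0.00, adjusted p = 0.9975).

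Scap, the escort of both factors (chr9:110287280-110287339), was at 5.71, 5.93 and 5.75 in the Tbc1d23 line at 0 h, against 5.13, 5.25 and 5.23 in the CAT line. At 5 h Scap was at 5.86, 5.83 and 5.80 in the Tbc1d23 line, against 5.20, 5.12 and 5.03 in the CAT line. It was higher without overlap at both times, by 0.60 ± 0.11 and 0.71 ± 0.11. Scaled to the array median the difference at 0 h was 0.05 (adjusted p = 0.919), and that of all genes was -0.45. Insig1, a sterol-sensing anchor of Scap and itself a target of SREBP (chr5:28404246-28404305), was at -1.49, -1.98 and -1.84 in the Tbc1d23 line at 0 h, against -0.42, -0.64 and -0.57 in the CAT line. After 1 h of LPS it was at -1.96, -1.72 and -1.63 in the Tbc1d23 line, against 0.85, 0.57 and 0.62 in the CAT line. The line difference was -1.23 ± 0.17 at 0 h and -2.45 ± 0.17 at 1 h, the widest among the regulators at any of the 4 times. Its homologue Insig2 differed by -0.08 at 0 h and 0.04 at 5 h, not called.

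Stard4, a soluble carrier of cholesterol between membranes (chr18:33361181-33361240), was at 2.00, 2.18 and 2.13 in the Tbc1d23 line at 0 h, against 3.31, 3.46 and 3.09 in the CAT line. At 3 h Stard4 was at 1.82, 1.68 and 1.75 in the Tbc1d23 line, against 1.00, 1.37 and 1.45 in the CAT line. At 5 h it was at 1.73, 0.72 and 1.73 in the Tbc1d23 line, against 1.53, 1.99 and 1.90 in the CAT line. The lines lay apart at 0 h (-1.19 ± 0.22) and were not called at 3 h (0.48, adjusted p = 0.0747) or 5 h (-0.41, adjusted p = 0.122). The 2 other Stard4 probes gave -0.04 and -0.09 at 0 h and 0.53 and 0.67 at 5 h, so the difference at 0 h rests on the brightest probe.

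**Figure D3:**
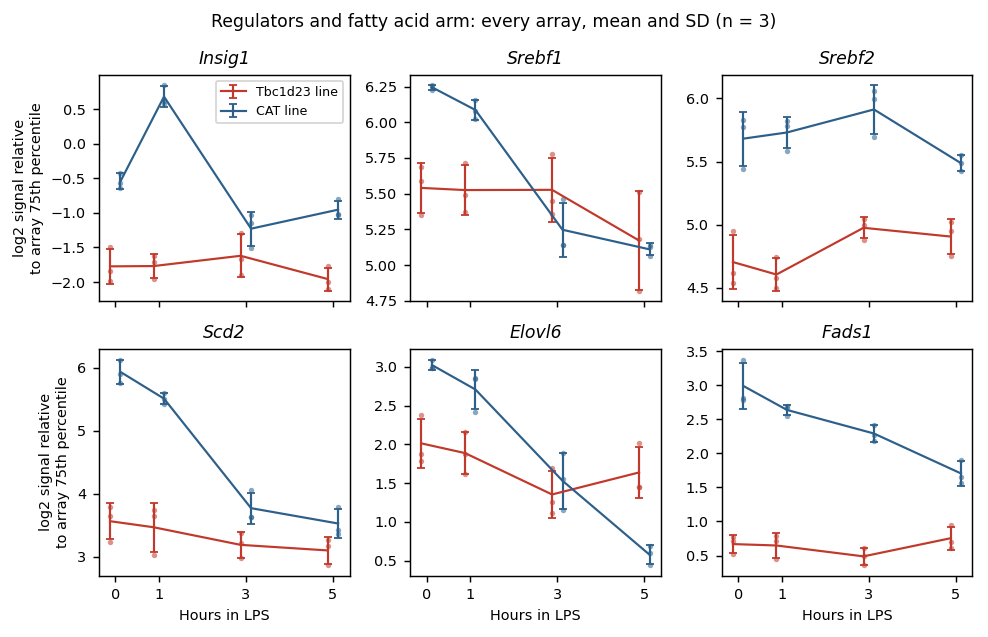
Level of 3 regulators and 3 fatty acid genes on every array (points), with the mean and SD of 3 arrays, by hours in LPS, in log2 signal relative to the array's 75th percentile. Insig1 stands above 0.5 in the CAT line at 1 h only, Srebf1 overlaps between the lines at 5 h, and Elovl6 crosses.

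In the fatty acid arm, 7 of 9 genes were lower in the Tbc1d23 line at 0 h, Me1 was higher and Fasn was not called, with an arm median of -1.01. At 5 h 4 were lower and 3 higher, with a median of -0.36. Scd1, the stearoyl-CoA desaturase of many tissues, was at -2.53, -5.01 and -3.73 in the Tbc1d23 line at 0 h, against 1.76, 1.15 and 1.202 in the CAT line. It was well above background on 2, 1, 1 and 2 of the 3 Tbc1d23 arrays at 0, 1, 3 and 5 h and on every CAT array. The fitted difference at 0 h was -5.13, and with normexp background correction it was -2.79, so its size depends on signal near background and is given as a description only. Scd2, the related desaturase (chr19:44381024-44381083), was at 3.66, 3.80 and 3.24 in the Tbc1d23 line at 0 h, against 6.13, 5.77 and 5.91 in the CAT line. At 5 h it was at 3.18, 3.26 and 2.87 in the Tbc1d23 line, against 3.80, 3.42 and 3.37 in the CAT line. Both times were without overlap, but the difference was -2.37 ± 0.20 at 0 h and -0.43 ± 0.20 at 5 h (adjusted p = 0.0764).

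Fads1, the delta-5 desaturase of polyunsaturated fatty acids (chr19:10270530-10270589), was at 0.78, 0.52 and 0.71 in the Tbc1d23 line at 0 h, against 3.38, 2.81 and 2.78 in the CAT line. At 5 h Fads1 was at 0.62, 0.95 and 0.70 in the Tbc1d23 line, against 1.90, 1.56 and 1.65 in the CAT line. It was lower without overlap at both times, by -2.32 ± 0.15 and -0.95 ± 0.15. Fads2, the delta-6 desaturase, differed by -0.76 at 0 h (called) and -0.15 at 5 h (adjusted p = 0.486). Acaca, the acetyl-CoA carboxylase that makes malonyl-CoA (chr11:84214359-84214418), was at -2.04, -1.87 and -1.79 in the Tbc1d23 line at 0 h, against 0.17, -0.55 and -0.58 in the CAT line. At 5 h Acaca was at -2.18, -2.11 and -1.87 in the Tbc1d23 line, against -0.93, -1.19 and -0.84 in the CAT line. It was lower without overlap at both times, by -1.58 ± 0.18 and -1.06 ± 0.18, while the mean of its 3 probes gave -0.76 at 0 h (adjusted p = 0.0817).

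Elovl6, which elongates palmitate (chr3:129341248-129341307), was at 1.88, 1.78 and 2.38 in the Tbc1d23 line at 0 h, against 2.98, 3.09 and 2.99 in the CAT line. After 5 h Elovl6 was at 1.45, 1.45 and 2.01 in the Tbc1d23 line, against 0.69, 0.60 and 0.44 in the CAT line. The order was opposite at the 2 times without overlap, with differences of -1.01 ± 0.22 and 1.06 ± 0.22. Acly, which makes cytosolic acetyl-CoA from citrate, was lower at 0 h (-0.70) and 5 h (-0.36, a call lost without CAT 5 h replicate 3, adjusted p = 0.0518, or Tbc1d23 5 h replicate 2, adjusted p = 0.0616). Fasn, fatty acid synthase, differed by 0.24 at 0 h (adjusted p = 0.137) and was higher by 0.78 at 3 h and 1.18 at 5 h. Me1, malic enzyme, a source of NADPH, was higher by 1.37 at 0 h and 1.05 at 5 h.

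Within the Tbc1d23 line, limma called none of the 33 genes after LPS at 1, 3 or 5 h, beside 1.66, 6.77 and 6.36% of all genes. Of all genes 0.834, 3.48 and 3.03% rose and 0.821, 3.3 and 3.33% fell. Medians were -0.05, -0.01 and -0.02. Unadjusted p-values were under 0.05 for 1, 7 and 3 genes, and the smallest adjusted p was 0.441 for Acat2 at 1 h, 0.0861 for Elovl6 at 3 h and 0.064 for Stard4 at 5 h. In this line each replicate's 4 times shared a slide and deviated together, and with the replicate as a block 0, 7 and 5 genes were called, beside 4.62, 16.6 and 15.5% of all genes. The members' share at 5 h was thus near that of all genes. At 3 h these were Hmgcs1 (0.57), Msmo1 (0.45), Sqle (0.25) and Cyp51 (0.23), which rose, and Elovl6 (-0.66), Mvk (-0.45) and Scd2 (-0.38), which fell. At 5 h Fads2 rose (0.33) and Stard4 (-0.71), Scd2 (-0.46), Elovl6 (-0.37) and Srebf1 (-0.37) fell. Stard4 stood at 1.73, 0.72 and 1.73 at 5 h, so the size of its fall leaned on 1 array. Without the block, its other probes gave 0.15 and 0.31 at 5 h, not called.

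Within the CAT line, only Insig1 and Cyp51 were called at 1 h of LPS, a share near that of all genes, and a broad fall came later. At 1 h these 2 genes rose and none fell (7.5% of all genes called, 3.66% higher and 3.85% lower), at 3 h 18 fell and 2 rose (34.8% called, 18.6% lower and 16.1% higher), and at 5 h 20 fell and 1 rose (41.6% called, 23.2% lower and 18.3% higher). The median response was -0.14, -0.49 and -0.53 at 1, 3 and 5 h, beside -0.10, -0.02 and 0.01 over all genes. With the replicate as a block, 7 genes were called at 1 h, again a share near that of all genes (17.4%). Hmgcs1 (0.68) and Idi1 (0.29) also rose, and Mvd (-0.36), Dhcr7 (-0.41) and Scd2 (-0.42) fell. The block called 22 genes at 3 h and 25 at 5 h, beside 48.8 and 56.7% of all genes. It added Fdps (-0.20) and Scd1 (-1.001) as falling at 3 h, and Msmo1 (-0.43, adjusted p = 0.00551), Ebp (-0.35, adjusted p = 0.00802), Insig1 (-0.41, adjusted p = 0.0429) and Fads2 (-0.27, adjusted p = 0.00333) at 5 h. Scaled to the array median, 8 genes fell at 3 h and 10 at 5 h, with none higher, beside 15.6 and 21.2% of all genes called.

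**Figure D4:**
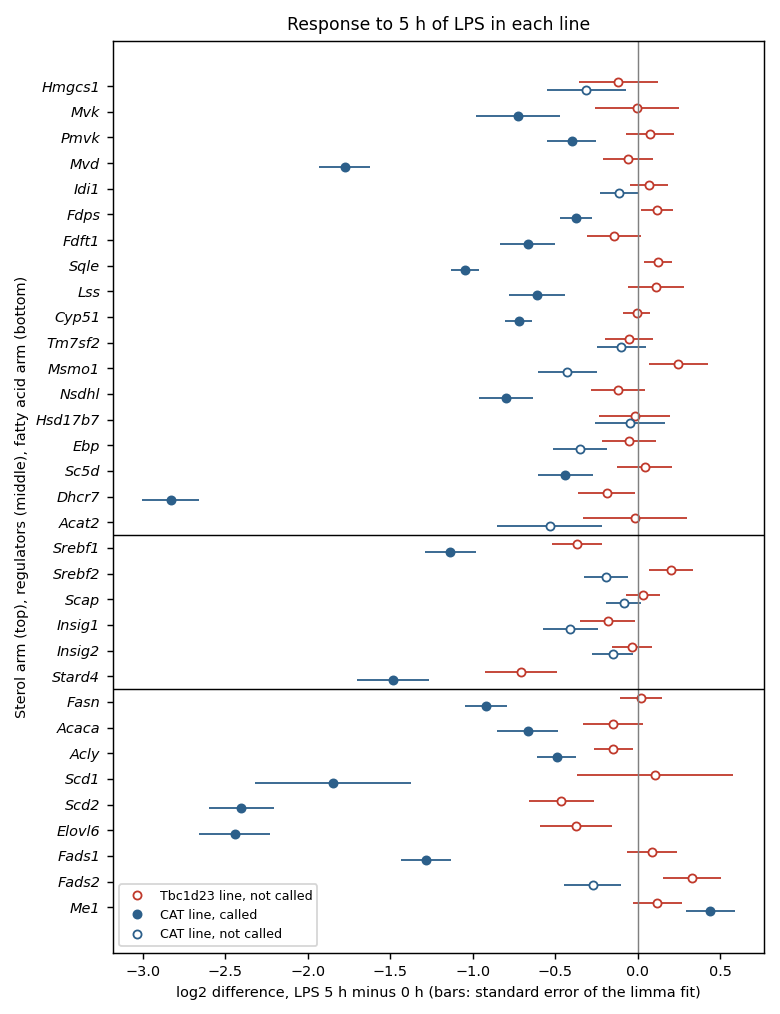
Log2 response to 5 h of LPS, relative to 0 h, of each of the 33 genes in the Tbc1d23 line and in the CAT line, with SE bars (3 arrays a group) and filled points for called genes. In the CAT line 20 genes lie below 0 as called and Dhcr7 lies at -2.83, while no gene of the Tbc1d23 line is called.

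In the sterol arm of the CAT line, 9 of 18 genes fell at 3 h and 11 at 5 h. Dhcr7 fell by 2.07 ± 0.17 at 3 h and 2.83 ± 0.17 at 5 h, and its levels at 5 h (1.98, 1.70 and 1.56) lay below all those at 0 h (4.46, 4.68 and 4.59). Mvd fell by 1.72 ± 0.15 and 1.78 ± 0.15. Both were the steepest in the arm at 5 h, and Sqle followed with a fall of 1.05. Cyp51 rose by 0.54 ± 0.08 at 1 h and fell by 0.90 at 3 h and 0.72 at 5 h. Its dimmer probes were not called at 5 h (-0.35, adjusted p = 0.291, and -0.31, adjusted p = 0.15), so that call rests on the brightest probe. The levels of Cyp51, given here after its values were seen, were 1.31, 1.24 and 1.40 in CAT cells at 1 h of LPS, against 0.75, 0.72 and 0.87 at 0 h. Hmgcs1 fell by 0.98 at 3 h and was not called at 5 h (-0.31, adjusted p = 0.345). The remaining falls at 5 h were of Nsdhl (-0.80), Mvk (-0.73), Fdft1 (-0.67), Lss (-0.61), Sc5d (-0.44), Pmvk (-0.40) and Fdps (-0.38). Idi1 rose by 0.33 at 3 h, a call lost without CAT 3 h replicate 1 (0.22, adjusted p = 0.198), among others. Tm7sf2 (-0.10), Msmo1 (-0.43), Hsd17b7 (-0.05), Ebp (-0.35) and Acat2 (-0.53) were not called at 5 h without the block. A dimmer Hsd17b7 probe rose at 5 h (0.46, adjusted p = 0.0061), so the missing Hsd17b7 call depends on the probe.

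Among the regulators of the CAT line, Insig1 rose by 1.22 ± 0.17 at 1 h (2.33-fold) to 0.85, 0.57 and 0.62, against -0.42, -0.64 and -0.57 at 0 h. It fell by 0.68 ± 0.17 at 3 h, with levels of -1.15, -1.03 and -1.51. Its response thus changed direction between 1 and 3 h. Srebf1 fell by 1.00 ± 0.15 at 3 h and 1.14 ± 0.15 at 5 h, and Stard4 by 2.02 ± 0.22 and 1.49 ± 0.22. Other Stard4 probes gave -0.42 (adjusted p = 0.00614) and -0.45 (adjusted p = 0.067) at 5 h, so the size of this fall rests on the brightest probe. Srebf2 (-0.19), Scap (-0.09) and Insig2 (-0.15) were not called at 5 h.

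In the fatty acid arm of the CAT line, 6 of 9 genes fell at 3 h and 7 at 5 h. At 5 h Elovl6 fell by 2.44 ± 0.22, Scd2 by 2.40 ± 0.20, Scd1 by 1.85 ± 0.47, Fads1 by 1.28 ± 0.15 and Fasn by 0.92 ± 0.13. Every CAT array at 5 h lay below every CAT array at 0 h for Elovl6, Scd2 and Fads1. Acaca fell by 0.67, a call lost without CAT 0 h replicate 1 (-0.42, adjusted p = 0.0507), and Acly by 0.49. Me1 rose by 0.62 at 3 h and 0.44 at 5 h, and Fads2 was not called (-0.27).

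The difference between the responses of the lines was tested directly as an interaction, the LPS response of the Tbc1d23 line minus that of the CAT line. At 1 h it was called for 2 genes, both below 0 (2.41% of all genes, 1.77% below and 0.636% above 0): Insig1 (-1.22 ± 0.24, adjusted p = 0.00471) and Cyp51 (-0.58 ± 0.12, adjusted p = 0.00682), which rose in CAT cells. At 3 h it was above 0 for 11 genes (16.6% called, 8.28% above and 8.36% below 0) and at 5 h for 13 (23.2% called, 12.6% above and 10.6% below 0), with none below 0. The 13 include Scd1, which was near background in the Tbc1d23 line, where a fall could hardly register. With the replicate as a block it was called for 17 genes at 3 h and 22 at 5 h, of which 1 each time was below 0, beside 30.3 and 39.6% of all genes. A positive value means that the response of the Tbc1d23 line lay above that of the CAT line. For Hmgcs1 at 3 h, for example, the responses were 0.57 in the Tbc1d23 line (adjusted p = 0.222) and -0.98 in the CAT line. Dhcr7 had the largest value at 5 h, 2.64 ± 0.24 (adjusted p = 1.25e-07), with responses of -0.19 in the Tbc1d23 line and -2.83 in the CAT line. Elovl6 followed with 2.07 ± 0.31, from -0.37 in the Tbc1d23 line and -2.44 in the CAT line. The interaction of Fasn at 3 h (0.54, adjusted p = 0.0493) lost its call without any of 18 single arrays, for example CAT 3 h replicate 3 (0.41, adjusted p = 0.139). Without the filter on dim probes, 1 gene had a called interaction at 1 h, beside 1.2% of all genes. Scaled to the array median, 0, 9 and 7 genes had one at 1, 3 and 5 h, beside 0.464, 7.3 and 8.89% of all genes.

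Outside the 33 genes, a list of 28 other genes of sterol and fatty acid metabolism was measured whole. In the unexposed Tbc1d23 line, 10 were lower and 6 higher, with a median of -0.29, beside 45.2% of all genes called. Averaged over times 12 were lower and 8 higher, a share near the 70.5% of all genes. At 5 h of LPS 2 fell and 1 rose in the Tbc1d23 line, while 11 fell and 6 rose in CAT cells, beside 6.36 and 41.6% of all genes. Acss2, which makes acetyl-CoA from acetate, was the lowest by the average of times, at -2.26 ± 0.09. Ch25h, the cholesterol 25-hydroxylase whose product restrains SREBP, was named by the same rule, but its average has no rank. It was well above background on 0 of 12 Tbc1d23 arrays and 6 of 12 CAT arrays. Ch25h could pass the filter only through the CAT groups at 3 and 5 h, so the directions given next were fixed by that filter. The counts of this list include it. After 3 h of LPS Ch25h was at least 15.5-fold lower in the Tbc1d23 line than in the CAT line, and after 5 h at least 14.7-fold lower. In CAT cells it rose at least 19.3-fold at 3 h and at least 14.5-fold at 5 h. A fold here is a lower bound, the bright group's mean against the detection limit of the dim group's arrays.

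The highest fitted averages were those of Acacb, the mitochondrial acetyl-CoA carboxylase (1.90 ± 0.24), and Lpin1, a phosphatidate phosphatase that also acts in the nucleus (1.78 ± 0.08). Acacb was at least 4.32-fold higher in the Tbc1d23 line at 5 h, where no CAT array was well above background. Lpin1 fell by 0.58 in the Tbc1d23 line at 5 h (adjusted p = 0.0455), against a fall of 3.36 in CAT cells.

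Marker lists of cell types were measured beside these genes, and their part in the results was not tested. Beside the marker counts, 70.5% of all genes were called averaged over times, 45.2% at 0 h, and 6.36 and 41.6% after 5 h of LPS in the Tbc1d23 and CAT lines. All 10 macrophage markers were measured, with 9 or 10 well above background in every group. Their summed level, in multiples of the 75th percentile, was 949 to 1759 in Tbc1d23 arrays and 1320 to 2112 in CAT arrays, and 8 were lower and 1 higher by the average of times. Of 6 measured osteoclast markers, 5 were lower and 1 higher (median -3.51), with sums of 2.35 to 6.60 in Tbc1d23 arrays and 5.78 to 65.4 in CAT arrays. Of these 6, 2 or 3 were well above background on all arrays of each Tbc1d23 group, and 5 or 6 of each CAT group. A marker that passed the filter through CAT groups only had its direction fixed by that filter. The osteoclast counts and median are thus given as a description only. All 5 markers of cycling cells were measured. 3 were lower in the Tbc1d23 line at 0 h, with sums of 68.2 to 81.3 against 103 to 106.98 in the CAT line. At 5 h of LPS 1 fell in the Tbc1d23 line, and 4 fell in CAT cells (median -0.95), with sums there of 45.7 to 49.6 against 103 to 106.98 at 0 h. The few measured markers of B cells (3), T and NK cells (3), fibroblasts and epithelium (3) and adipocytes (1) summed to at most 4.09 on any array.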

How the data were processed

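RNA of 24 samples was hybridised to one-colour (Cy3) Agilent arrays. Spot intensity was deposited per array, and per the file headers it is the signal that Agilent Feature Extraction 10.7.1.1 had processed. The deposited value table holds log2 values, used as an alternative. The submitters' processing notes also name RMA and Partek, with no roles.

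With control spots left out, 43379 spots remained. Spots flagged as outliers were left out and spots of a probe averaged. Where all spots of a probe on an array were flagged (187 values), the flagged spots were used. Each array's log2 intensity was set relative to its 75th percentile, which lay between 157 and 363. A gene was read by its brightest probe among the 21964 well above background on all arrays of a group, giving 15100 genes. Limma 3.58.1 (R 4.3.3) fitted the 8 groups together, with 16 residual degrees of freedom, and p-values were adjusted by Benjamini-Hochberg over all genes. Scripts were tested on simulated data. The number of arrays limits the precision, and 3 arrays against 3 could not give an exact permutation p below 0.1.

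Genes given array by array were 5 sterol, 5 regulator and 4 fatty acid genes by a written rule, with Scd1 added after its values were seen. The rule named Srebf1, Srebf2 and Insig1. In each arm it took the genes with the largest line differences averaged over times and the largest 5 h responses in the CAT line. Genes taken this way were picked by their values in these data and are the extremes of their arm. From the other-pathway list the rule named, without array values, the 2 highest and 2 lowest called by the average of times. The members and lists were chosen with earlier results of these data known. Some genes of that list are not reported here.

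Per the file headers, the 4 times of a line and replicate share 1 of 6 slides. Deviations from group means of the same replicate number correlated at 0.51 to 0.822 within the Tbc1d23 line and 0.174 to 0.682 within the CAT line, so numbers pair samples within a line. Between lines the same numbers correlated at -0.424 to 0.0278 and pair nothing. Alternatives were other normalizations, probe filters, probe means, slide and run blocks, and leaving out arrays. Plain normexp could not be fitted on 6 arrays and was replaced, after seeing the data, by a version with median parameters (offset 50).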

Additional observations from a re-analysis of the deposited data

Results flagged for a closer look

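The LPS response of the Tbc1d23 line minus that of the CAT line passed its interaction test for 26 pairs of gene and time. At 1 h both values were below 0: Insig1 at -1.22 and Cyp51 at -0.58. At 3 h the sterol genes were Dhcr7 at 1.90, Mvd at 1.61, Hmgcs1 at 1.54, Cyp51 at 1.13, Sqle at 0.98 and Fdft1 at 0.72. The others at 3 h were Scd2 at 1.79, Stard4 at 1.67, Srebf1 at 0.99, Insig1 at 0.84 and Fasn at 0.54. All these values come from brightest probes, and other probes of Stard4 and Cyp51 fell less in the CAT line at 5 h. At 5 h the sterol genes were Dhcr7 at 2.64, Mvd at 1.72, Sqle at 1.17, Lss at 0.72, Cyp51 at 0.72, Nsdhl at 0.68 and Fdps at 0.49. The others at 5 h were Elovl6 at 2.07, Scd1 at 1.95, Scd2 at 1.94, Fads1 at 1.37, Fasn at 0.94 and Srebf1 at 0.77. Scd1 met the filter through CAT groups only and was near background in the Tbc1d23 line. A fall could hardly register there, so the Scd1 value is a description only.

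Leaving out 1 array ended some of these calls. At 3 h Fdft1 lost its call without any of 8 arrays (0.59 to 0.74), and Insig1 without Tbc1d23 0 h replicate 2 (0.73), Tbc1d23 3 h replicate 3 (0.67) or CAT 3 h replicate 3 (0.70). At 5 h Lss lost its call without any of 6 arrays (0.53 to 0.72) and Scd1 without any of 13 (1.32 to 2.06). Stard4 at 5 h was 0.78 (adjusted p = 0.0801) with all arrays and 1.12 (adjusted p = 0.00131) without Tbc1d23 5 h replicate 2.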

How the results depend on the processing

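Of 5516 values under other settings, 5109 kept direction and call, or were called in neither setting whatever their direction. Another 153 lost the call, 244 gained it, and 10 reversed with a call in either setting. Leaving out single arrays gave called counts of 27 to 28, 28 to 28, 21 to 25, 22 to 26 and 28 to 30 for the lines at 0, 1, 3 and 5 h and their average, 0 to 0, 0 to 1 and 0 to 2 for LPS in the Tbc1d23 line at 1, 3 and 5 h, 2 to 2, 16 to 21 and 17 to 23 in the CAT line, and 2 to 2, 9 to 12 and 10 to 14 for the interaction. Median scaling put the all-gene median at -0.45 for the lines at 0 h, against 0.09. It gave 10 called genes for the lines at 3 h and 15 at 5 h, beside 27.6 and 31.1% of all genes. For LPS in the CAT line it gave 1, 8 and 10, beside 2.77, 15.6 and 21.2%. For the interaction it gave 0 and 7 at 1 and 5 h, beside 0.464 and 8.89%. LPS in the CAT line at 1 h gave 4 called genes with quantile normalization, repaired normexp, the deposited table, the run as a block or without Tbc1d23 replicate 3. It gave 5 with probe means, and 7 with slides as a random effect or the replicate block. Under these settings 6.38 to 17.4% of all genes were called. LPS in the Tbc1d23 line at 3 h gave 2 with quantile normalization, normexp or the deposited table and 1 with probe means. It gave 3 with the run block, 6 with the random slide and 7 with the replicate block. The shares of all genes were 5.94 to 16.8%. At 5 h LPS in this line gave 1 with probes above background on all arrays and 3 with the run block. It gave 5 with the random slide or the replicate block, and the shares of all genes were 7.72 to 15.5%. The interaction at 1 h gave 1 without a filter, beside 1.2% of all genes. At 3 h it gave 17 with quantile normalization, normexp, the deposited table or the replicate block and 18 with the random slide, beside 15.5 to 30.3% of all genes. At 5 h it gave 20 with quantile normalization or the deposited table, 21 with the random slide and 22 with the replicate block, beside 25.8 to 39.6%. The replicate number as a block across lines, which pairs nothing, gave 28, 28, 24, 24 and 29 for the lines. The shares of all genes were 49.2, 50.1, 54.7, 56.8 and 72.9%. Sc5d reversed at 0 h with median scaling (-0.0439), and with probe means at 0 h (-0.64), 1 h (-1.01), 3 h (-0.0934), in the average (-0.37) and for LPS in the CAT line at 3 h (-0.86), where its 2 probes oppose each other. Stard4 at 5 h reversed with probe means (0.26). The average of Srebf1 reversed with the run block and within the run (0.00026 both), and that of Acat2 within the run (-0.31). The cause of these changes was not tested. Plain normexp was not run. Signal near background limits Scd1 and Ch25h.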
